A study of Mus musculus with 13 samples.

Results

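The histone cluster genes are the members of the mouse Hist1, Hist2, Hist3 and Hist4 gene clusters, which encode the linker histone H1 and the core histones H2A, H2B, H3 and H4. Members were taken as every gene whose symbol starts with Hist1h, Hist2h, Hist3h or Hist4h, and 70 of the 55536 genes in the tables met this rule, 55450 of which had a symbol. The rule uses symbols and no measured value, although the group was picked for study with earlier results of these data known. They comprised 6 H1, 20 H2A, 19 H2B, 12 H3 and 13 H4 genes. By symbol, 56 belonged to Hist1 (chromosome 13), 10 to Hist2 (chromosome 3), 3 to Hist3 (chromosome 11) and 1 to Hist4 (chromosome 6). RefSeq (GRCm38.p6, the build also called mm10) matched 69 of them, 66 as protein-coding genes and 3 as pseudogenes. Hist1h2ap matched no single entry and is given without coordinates. Hist1h2al, 1 of the pseudogenes, lies on chromosome 13 at 51200084 to 51203066, far from the other Hist1 genes with coordinates.

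Expression was measured by poly(A)-selected RNA-seq in 4 libraries of neutrophils isolated fresh from the bone marrow of wild-type (WT) mice. In 2 libraries the cells were mock treated (mock), and in 2 they were digested from outside with RNase A (exRNaseA), an enzyme that cuts single-stranded RNA. The digestion is described as 10 min at 37 °C in HBSS, a balanced salt buffer. The mock libraries carry the same protocol text, so groups were read from the sample titles and the treatment field. For the mice, the sources used here give no age, sex or number. The series calls the libraries biological replicates, but nothing used here ties them to separate animals, so every p-value below measures only the spread between these 4 libraries. Depth was 23722494 and 20798960 expected counts for mock, and 20661683 and 22870322 for exRNaseA. The neutrophil markers summed to 278200 to 291500 TPM (a level scaled for gene length and library size) in the 4 libraries. Markers of other cells were also present, with 5160 to 5411 TPM for 12 erythroid genes and 1913 to 1929 TPM for 13 B-lineage genes. The 8 genes listed as stem and progenitor markers, Spi1 among them, summed to 377 to 415 TPM, a sum that neutrophils themselves may add to. In none of the 9 marker lists was a gene at 0 in all 4 libraries.

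Cluster histone genes are transcribed in S phase, when new DNA needs packaging, and have no introns in the classical form. Their messages normally end in a conserved stem-loop bound by the stem-loop binding protein SLBP instead of a poly(A) tail, so poly(A) selection recovers them poorly. Some cluster genes also make polyadenylated transcripts, and the replication-independent variants, such as those encoded by H3f3a and H3f3b, are ordinary polyadenylated messages made in non-dividing cells too. Mature neutrophils no longer divide, while the marrow precursors that produce them do.

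The sequences upstream of the genes that the results turn on are shown first, because several are nearly the same in neighbouring genes. Reads of such genes are hard to assign where the transcripts are alike too, but transcript sequences were not compared. Each line holds the 120 bases before the RefSeq start, 5′ to 3′ on the gene's strand, from RefSeq GRCm38.p6, with matches to CCAAT or its reverse complement ATTGG in capitals. Hist1h1c lies downstream of chr13:23738687-23738806 (plus strand), Hist1h4i of chr13:22041363-22041482 (minus strand), Hist1h2bq of chr13:21810200-21810319 (minus strand) and Hist1h2br of chr13:21833623-21833742 (plus strand). The 4 Hist2 windows are chr3:96245377-96245496 (plus strand) for Hist2h2aa1, chr3:96240375-96240494 (minus strand) for Hist2h2aa2, chr3:96246565-96246684 (plus strand) for Hist2h3c1 and chr3:96239128-96239247 (minus strand) for Hist2h3c2.
Hist1h1c: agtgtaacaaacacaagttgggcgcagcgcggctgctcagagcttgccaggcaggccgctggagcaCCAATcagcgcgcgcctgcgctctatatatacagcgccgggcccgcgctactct
Hist1h4i: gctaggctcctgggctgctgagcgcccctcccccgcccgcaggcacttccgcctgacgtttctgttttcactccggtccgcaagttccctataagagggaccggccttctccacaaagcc
Hist1h2bq: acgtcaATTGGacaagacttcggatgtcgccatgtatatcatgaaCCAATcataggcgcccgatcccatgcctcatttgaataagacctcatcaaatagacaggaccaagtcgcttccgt
Hist1h2br: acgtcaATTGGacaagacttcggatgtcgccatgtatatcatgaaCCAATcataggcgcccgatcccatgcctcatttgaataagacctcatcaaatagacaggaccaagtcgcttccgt
Hist2h2aa1: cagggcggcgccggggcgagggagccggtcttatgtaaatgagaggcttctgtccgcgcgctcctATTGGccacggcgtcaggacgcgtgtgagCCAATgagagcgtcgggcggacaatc
Hist2h2aa2: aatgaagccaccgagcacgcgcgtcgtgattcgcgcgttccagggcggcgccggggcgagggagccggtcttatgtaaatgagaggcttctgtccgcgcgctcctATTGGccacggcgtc
Hist2h3c1: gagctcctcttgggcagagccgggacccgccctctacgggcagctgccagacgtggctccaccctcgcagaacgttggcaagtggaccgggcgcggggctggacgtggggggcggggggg
Hist2h3c2: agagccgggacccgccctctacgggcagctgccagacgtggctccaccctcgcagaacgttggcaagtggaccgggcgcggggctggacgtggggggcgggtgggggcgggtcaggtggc

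The windows of Hist1h2bq and Hist1h2br were the same letter for letter. Over the whole promoter entry of 300 bases that runs across the start, these genes had 300 of 300 bases equal. At the offset with the most equal bases, Hist2h3c1 and Hist2h3c2 shared 284 of 285 aligned bases, Hist1h4m and Hist1h4n 298 of 299, and Hist2h2aa1 and Hist2h2aa2 249 of 260. Below, such pairs are called copies on this promoter sequence alone. Hist2h2aa1 and Hist2h2aa2 (H2A) and Hist2h3c1 and Hist2h3c2 (H3) form a mirrored block on chromosome 3. Hist2h3c2 (96238479 to 96239127) and Hist2h2aa2 (96239779 to 96240374) lie on the minus strand, and Hist2h2aa1 (96245497 to 96246052) and Hist2h3c1 (96246685 to 96247348) on the plus strand.

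RefSeq promoter entries were matched to 61 of the 70 members and searched on both strands for 3 motifs known from histone promoters. Over the entries of 300 bases, CCAAT stood in 52 of 61 (85.2%), against 37.9% of all 27025 promoters of the same length. It was present in every H1, H2A, H2B and H3 entry and in 3 of the 12 H4 entries. The printed stretches of 120 bases are shorter, and those of Hist1h4i, Hist2h3c1 and Hist2h3c2 hold no match. TATAAA stood in 35 of 61 (57.4%) against 14.2%. ATTTGCAT, the octamer bound by POU-domain factors such as Pou2f1, stood in 13 of 61 (21.3%) against 1.75%, in 7 of 17 H2A and 6 of 16 H2B windows and in no H1, H3 or H4 window. These are matches of letters, counted apart for each motif, and neighbouring genes can share a match because their windows overlap.

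In total the 70 genes held little of the poly(A) RNA. Their summed level was 447 and 462 TPM in the mock libraries and 467 and 468 TPM in the exRNaseA libraries, a mean of 0.0461% of all TPM. Counts were found for 60 members in at least 1 library and for 38 in all 4, while 10 had none. The 10 were Hist1h2aa, Hist1h2af, Hist1h2ah, Hist1h2ai, Hist1h2aj, Hist1h2al, Hist2h2ab, Hist1h2ba, Hist2h2bb and Hist1h3h, of which 7 are H2A genes. A count of 0 over the 4 libraries together allows up to 0.0341 CPM (counts scaled to library size), taking 3 counts as the limit and covering counting error only. A mean of at least 1 TPM was reached by 24 members and of at least 10 TPM by 7.

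**Figure D1:**
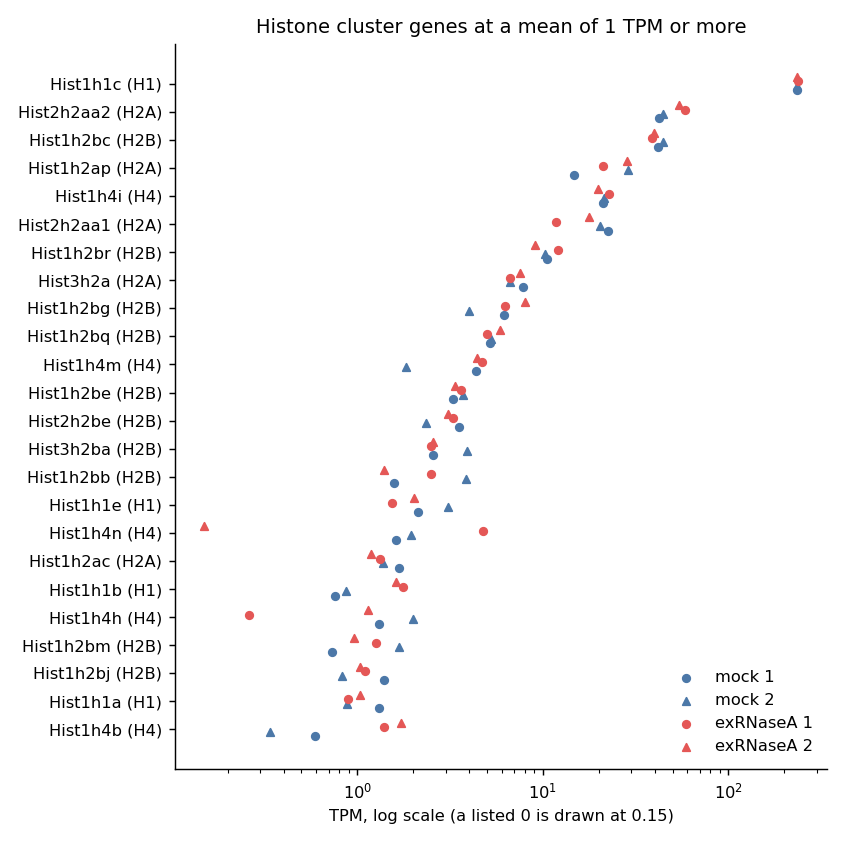
Level in TPM (log axis) of the 24 histone cluster genes with a mean of at least 1 TPM, ordered by level. Each point is 1 library (blue mock, red exRNaseA, circles replicate 1, triangles replicate 2), and a library at 0 is drawn at 0.15. Hist1h1c stands alone near 235 TPM, and Hist2h2aa2 and Hist1h2bc follow at means of 49.9 and 41.2 TPM.

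In the poly(A) RNA nearly all of the linker histone level came from 1 gene. Hist1h1c (ENSMUSG00000036181.2, chromosome 13, 23738807 to 23739531), which encodes a somatic H1 subtype, had 234 and 235 TPM in the mock and 237 and 233 TPM in the exRNaseA libraries. That was 50.9% of the TPM of all members and 98.0% of the H1 family. The other 5 H1 genes were far lower, with Hist1h1e at a mean of 2.19 TPM, Hist1h1b at 1.25, Hist1h1a at 1.03 and Hist1h1d at 0.23 TPM.

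H2A genes, whose products pair with H2B in the nucleosome core, held 22.6% of the members' TPM. Hist2h2aa2 was the highest of them, at 42.3 and 44.3 TPM in the mock and 58.6 and 54.3 TPM in the exRNaseA libraries. Hist1h2ap had 14.7, 28.7, 21.2 and 28.3 TPM in the same order, so the mock libraries held both the lowest and the highest value. Hist2h2aa1 had 22.5 and 20.2 against 11.8 and 17.7 TPM, and Hist3h2a 7.78 and 6.62 against 6.69 and 7.54 TPM. Only 5 of 20 H2A genes reached a mean of 1 TPM, the fifth being Hist1h2ac at 1.39 TPM.

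The H2B family was spread over more genes, with 10 of 19 at or above a mean of 1 TPM. Hist1h2bc (chromosome 13, 23684199 to 23692480) made up 51.1% of the family at 41.9 and 44.4 TPM in the mock and 38.7 and 39.8 TPM in the exRNaseA libraries. Hist1h2br followed with 10.6, 10.3, 12.0 and 9.10 TPM, and Hist1h2bg with 6.20, 4.01, 6.22 and 7.99 TPM. Hist2h2be, whose counts were whole in all 4 libraries, had 3.52 and 2.34 against 3.26 and 3.10 TPM. Hist1h2bg and Hist1h2bq overlapped in their library values, as did each neighbouring pair from Hist1h2be down to Hist3h2ba and Hist1h2bb, so the order within those runs is not resolved.

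Core histone H4, encoded by 13 genes, held 7.01% of the members' TPM, and 5 of the 13 reached a mean of 1 TPM. Hist1h4i (chromosome 13, 22040960 to 22041362) accounted for 65.8% of it, at 21.1 and 21.5 TPM in the mock and 22.7 and 19.7 TPM in the exRNaseA libraries. Hist1h4m had 4.35, 1.83, 4.69 and 4.40 TPM. Hist1h4n, whose upstream window is nearly the same, had 6.40 and 6.68 expected counts in the mock libraries, 16.17 in exRNaseA replicate 1 and 0 in replicate 2.

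No cluster H3 gene reached a mean of 1 TPM. Single libraries passed 1 TPM for Hist1h3d (1.33 in mock replicate 1, 1.16 in exRNaseA replicate 1) and for Hist1h3c (1.59 in exRNaseA replicate 2). Together the 12 H3 genes had 4.70 and 3.33 TPM in the mock and 4.44 and 4.73 TPM in the exRNaseA libraries. That was 0.933% of the members' TPM. The highest, Hist1h3d, had 23.49 and 10.53 against 17.81 and 9.48 expected counts. H3 and H4 are present in equal numbers in a nucleosome, but the summed poly(A) levels of their cluster genes were 4.30 and 32.3 TPM. The H3 sum leaves out the variant H3 genes, which had 3007 to 3073 TPM.

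In the poly(A) RNA the balance between cluster genes and variant genes differed by family. Poly(A) selection recovers cluster messages poorly, so the shares below are of poly(A) RNA and not of all messages of a family. For H3, the variant genes H3f3a, H3f3b and Cenpa (the centromeric H3) summed to 3073, 3007, 3053 and 3056 TPM, which was 646 to 903 times the cluster H3 level in the same library. The cluster genes were 0.111% to 0.155% of the TPM of the family. For H2A, 7 variant genes, led by H2afz, summed to 716 and 726 TPM in the mock and 752 and 707 TPM in the exRNaseA libraries. The cluster H2A genes were 11.4% to 13.9% of that family. For H1 the order was the opposite. H1f0 and H1fx summed to between 7.32 and 7.80 TPM, and cluster genes were 96.9% to 97.0% of the family. H3f3a and H3f3b have near-identical pseudogenes, so their counts are uncertain too.

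**Figure D2:**
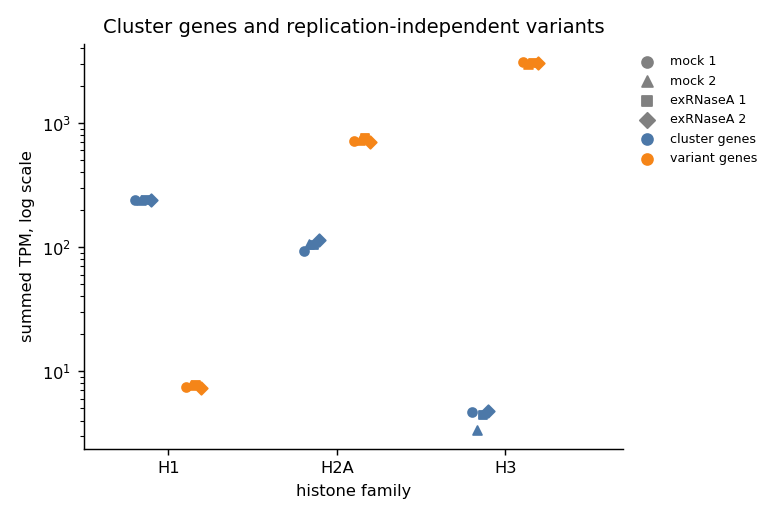
Summed TPM (log axis) of cluster genes and of variant genes in the H1, H2A and H3 families, 1 point per library (mock and exRNaseA). The libraries are poly(A) selected, which recovers cluster messages poorly. Cluster genes stand above variants in H1, and variants stand above cluster genes in H2A and, by 646 to 903 times, in H3.

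Gene model length separated the members by count. The length RSEM used ranged from 312 to 7425 bases with a median of 532. The 18 members of at least 1000 bases held 88.9% of the members' counts and 67.8% of their TPM, and all 18 had counts. Hist1h1c is 1 of them and held 66.3% of all member counts. Without it the other 17 held 67.2% of the remaining counts and 34.4% of the remaining TPM. The 52 shorter members held 11.1% of counts and 32.2% of TPM, and the 10 genes without counts were all among them. Per length the contrast was smaller, with median levels of 1.16 TPM in the longer and 0.465 TPM in the shorter members. Across the 70 members Spearman's rho with length was 0.70 for counts and 0.33 for TPM, as a description of genes that share the 4 libraries, and a longer model collects more reads at the same level. For 15 of 69 members the model was over 1.5 times the span of the RefSeq gene, and those 15 held 74.2% of the members' counts, or 23.4% without Hist1h1c. Per length those 15 were no higher than the rest, with a median of 0.438 against 0.546 TPM. A mean of at least 1 TPM was reached by 5 of 15 against 18 of 54. Hist1h1c had a model of 1560 bases against a RefSeq span of 725, Hist3h2a 2146 against 508, and Hist1h1d 7425 against 776. Where along a model the reads lie cannot be read from gene totals.

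**Figure D3:**
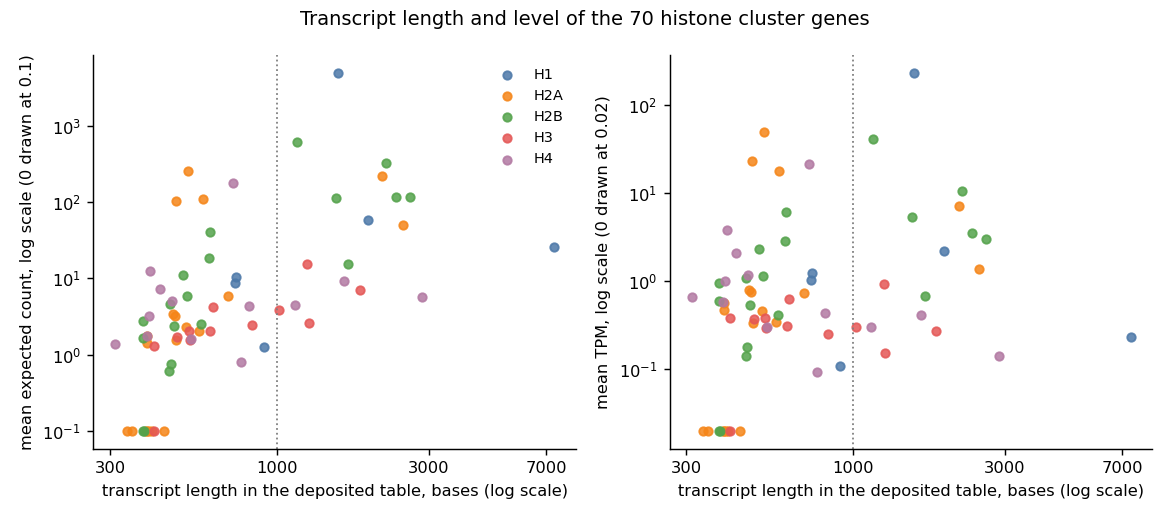
Gene model length in bases (log axis) against the mean expected count (left) and the mean TPM (right) over the 4 libraries, 1 point per histone cluster gene. The dotted line marks 1000 bases. The 10 genes without counts all lie to its left, and the relation with length is closer for counts (rho 0.70) than for TPM (rho 0.33).

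H2A and H2B genes often stand head to head and share the stretch between their starts. Among the 61 members with a promoter entry, 9 such pairs had RefSeq starts within 500 bases of each other (164 to 281 bases). The 9 members without an entry are in none of these pairs. They include Hist1h2bc, which begins at 23684199 near Hist1h2ac (ending at 23683959), and Hist2h2be, so the tally below is not of all such pairs. Of the 8 pairs with counts, the H2B gene had the higher TPM in 6 and the H2A gene in 2. Hist1h2bq had 5.21, 5.24, 5.03 and 5.91 TPM in mock and then exRNaseA order, and its partner Hist1h2ao 0, 0, 1.99 and 1.05 TPM. Hist1h2bg had 6.20, 4.01, 6.22 and 7.99 TPM and Hist1h2ae 0.51, 0.94, 0.65 and 0.87 TPM, lower in every library. Most pairs rest on few counts, such as Hist1h2bf with 2.42 counts in a single library, so these orders are not firm. Some of these genes also have near-identical copies elsewhere in the cluster, so the pairs are not independent.

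Many of these genes had reads that were shared with other genes. Expected counts were not whole, within 0.005, in at least 1 library for 50 of the 60 members with counts, which is how RSEM records reads shared between genes. Hist1h2ap and Hist1h2bq, an H2A and an H2B gene, carried almost the same count in both exRNaseA libraries, 87.91 and 87.92 in replicate 1 and 129.21 and 129.21 in replicate 2. In the mock libraries they differed, with 70.55 and 109.53 in replicate 1 and 120.62 and 117.40 in replicate 2. Between replicates of a group, the 11 members with 50 to 1000 counts had a median absolute log2 difference of 0.183, against 0.103 over 6981 genes of that range. Counts within that range were not matched, and 1 of the 11 members had whole counts. The part of shared reads in this difference was not tested. Because reads are shared, values of single members with such counts are uncertain, beyond the error their replicates show. The sources used here do not say whether counting used strand, so reads of overlapping genes on opposite strands cannot be told apart either.

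Mock and exRNaseA libraries were then compared, the contrast that asks whether RNase A outside the cells changes the RNA recovered from them. The members as a group differed little. Their summed counts were 342 and 344 CPM in the mock and 339.5 and 331 CPM in the exRNaseA libraries, a log2 ratio of -0.03, which took the opposite sign (0.04) when TPM were summed. Both exRNaseA libraries lay below both mock libraries in CPM and above them in TPM. An exact permutation test of either sum gave p = 0.333 (2-sided), the smallest that 2 against 2 libraries allow. In bulk samples, fewer cells of a type and less RNA per cell cannot be told apart. By family the log2 ratio of summed CPM was -0.04 for H1, 0.03 for H2A, -0.06 for H2B, -0.18 for H3 and -0.03 for H4.

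Of the 70 members 23 had enough counts to be tested. The other 47 held 1.47% of the members' counts and averaged at most 8.75 counts per library. With Benjamini-Hochberg adjustment over all 14184 tested genes, the quasi-likelihood test of edgeR called 1 member lower (4.35%) and none higher, where 0.0917% of all tested genes were called and 0.0705% called lower. At an unadjusted p under 0.05 stood 5 of 23 members (21.7%), against 6.35% of all tested genes. Both exRNaseA libraries were below both mock libraries for 8 members (34.8%, against 18.0% of all tested genes) and above them for 3 (against 17.7%). The median log2 change was -0.05 over the 23 members and 0.00 over all tested genes, with 16 negative and 7 positive. Because copies may share reads, the members are not taken as independent of each other. The neutrophil markers had a median of the same sign. Of 18 tested, 14 were negative with a median log2 change of -0.05, and 12 had an unadjusted p under 0.05, although edgeR called none (lowest adjusted p = 0.288). Their summed counts were 100600 and 99940 CPM in mock against 98050 and 94820 CPM in exRNaseA libraries, without overlap, while their TPM sums overlapped. Their part in the histone values was not tested. For the log2 change, the 95% interval stayed within 1 of no change for 13 of the 23 members, against 85.1% of all tested genes. A change of 2-fold was therefore outside the interval for those 13 members and inside it, or without a finite interval, for the other 10.

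**Figure D4:**
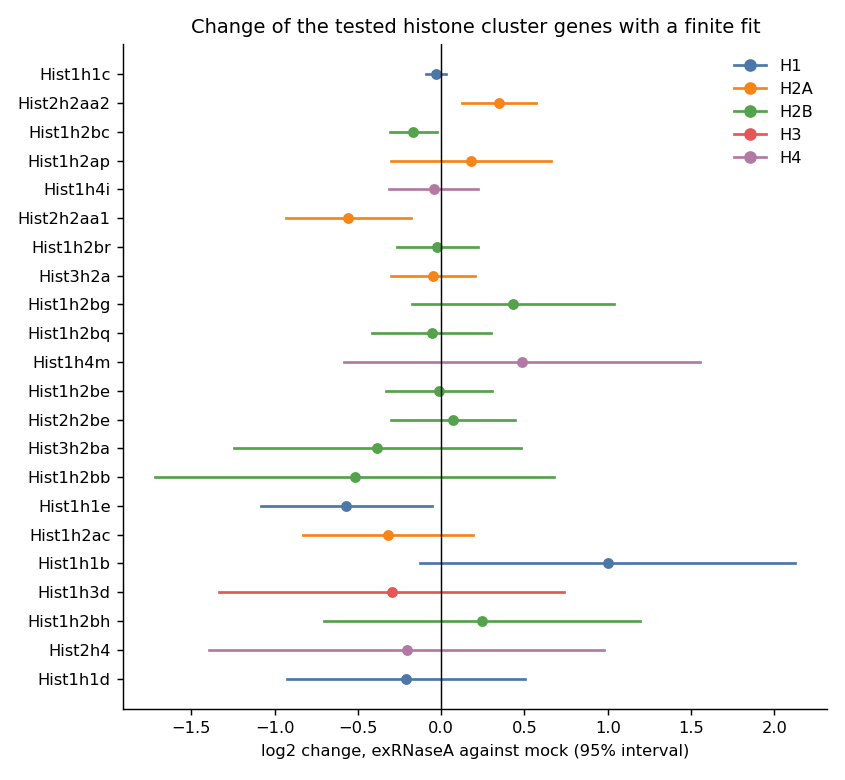
Log2 change, exRNaseA against mock, with its 95% interval from edgeR for the 22 tested histone cluster genes with a finite estimate. Hist2h3c1, at 0 in both exRNaseA libraries, has no finite estimate and is not drawn. Intervals are narrow for Hist1h1c and Hist1h2bc and wide for genes with few counts such as Hist1h1b and Hist2h4.

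Hist1h1c had 227.2 and 227.2 CPM in the mock and 226 and 219 CPM in the exRNaseA libraries. The exRNaseA values were lower, with no overlap in CPM but with overlap in TPM, and the log2 change was -0.03 (SE 0.03, 95% interval -0.09 to 0.03, edgeR adjusted p = 0.915). Hist1h2bc had 28.6 and 30.2 CPM against 26.0 and 26.4 CPM. Its groups did not overlap either, and its log2 change of -0.17 (SE 0.07, interval -0.31 to -0.02) was not called (edgeR adjusted p = 0.724). Hist1h1e had 62.04 and 78.02 expected counts against 38.44 and 55.66, a log2 change of -0.57 (SE 0.24, edgeR adjusted p = 0.752) with separate groups and few counts. Hist1h1b, another H1 gene, had 7 counts in each mock and 14 in each exRNaseA library. Its log2 change of 1.00 had an interval from -0.12 to 2.13 (edgeR adjusted p = 0.795).

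Of the remaining genes with the highest levels in their families, Hist1h4i had a log2 change of -0.05 (SE 0.13), Hist1h2br of -0.02 (SE 0.12) and Hist1h2ap of 0.18 (SE 0.23). The groups overlapped for all 3, and the sign of each turned in at least 1 of the alternative settings given at the end. Hist1h2bg had a log2 change of 0.43 (SE 0.29, edgeR adjusted p = 0.875) with overlapping groups. Hist1h4m had 15.19 and 5.58 expected counts against 14.10 and 14.64. In CPM (0.637 and 0.291 against 0.674 and 0.652) both exRNaseA libraries lay above both mock libraries, and the log2 change was 0.48 (SE 0.51, edgeR adjusted p = 0.921). Of the weakest named genes, Hist1h3d had -0.30 (SE 0.49) and Hist2h4 -0.21 (SE 0.57), with overlapping groups and a sign that depended on the libraries used.

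The remaining members with an unadjusted p under 0.05 all belonged to the mirrored Hist2 block whose upstream sequences are shown above. Hist2h2aa2 had 235.72 and 215.62 expected counts in mock and 281.79 and 287.58 in exRNaseA libraries, a log2 change of 0.35 (SE 0.11, edgeR adjusted p = 0.548). Its near-copy Hist2h2aa1 had 147.44 and 115.54 against 66.82 and 110.02, a change of -0.56 (SE 0.18, edgeR adjusted p = 0.596). The groups did not overlap for either gene, and the signs were opposite. Summed, an analysis chosen after seeing the data, the 2 genes had 16.3 and 16.1 CPM in the mock and 16.8 and 17.3 CPM in the exRNaseA libraries. The log2 change of the sum was 0.08 (interval -0.10 to 0.26, edgeR adjusted p = 0.93). Hist2h2aa1 made up 38.5% and 34.9% of the summed counts in mock and 19.2% and 27.7% in exRNaseA libraries.

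Hist2h3c1 (ENSMUSG00000093769.4), an H3 gene at the end of the same block, was the called member. Its expected counts were 16.56 in mock replicate 1 and 11.76 in mock replicate 2 (0.61 and 0.49 TPM), and both exRNaseA libraries had 0. It was called with an edgeR Benjamini-Hochberg adjusted p of 0.0343. With 3 counts as the limit for the exRNaseA group and the mock counts taken as exact, it was 9.57-fold lower. That figure leaves out counting error in mock, the spread between replicates and any reads shared with copies, so it is not a lower bound. Hist2h3c2, the copy of Hist2h3c1, had 2.51 and 3.54 counts in mock and 4.86 and 4.31 in exRNaseA libraries. Summed, the 2 genes had 19.07 and 15.30 counts against 4.86 and 4.31, a log2 change of -1.87 (interval -3.12 to -0.62). The sum was not called (edgeR adjusted p = 0.52), and the values stayed separate between groups. The 4 genes of the block together had 17.1 and 16.8 CPM in the mock and 17.1 and 17.5 CPM in the exRNaseA libraries. Nearly all of that came from the 2 H2A genes. The H3 pair had 0.85 and 0.775 CPM in the mock and 0.241 and 0.174 CPM in the exRNaseA libraries. The block sum therefore cannot show a change of the H3 pair. Hist2h3c1 was also not called by DESeq2 (adjusted p = 0.342), nor in edgeR without mock replicate 2 (adjusted p = 0.485), without exRNaseA replicate 1 (0.113), without exRNaseA replicate 2 (0.296) or without 5 genes carrying rRNA sequence (0.0529), and it was not tested without mock replicate 1. In the 3 settings of edgeR that left out a library and still tested it, the unadjusted p was 0.000689 to 0.00117.

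**Figure D5:**
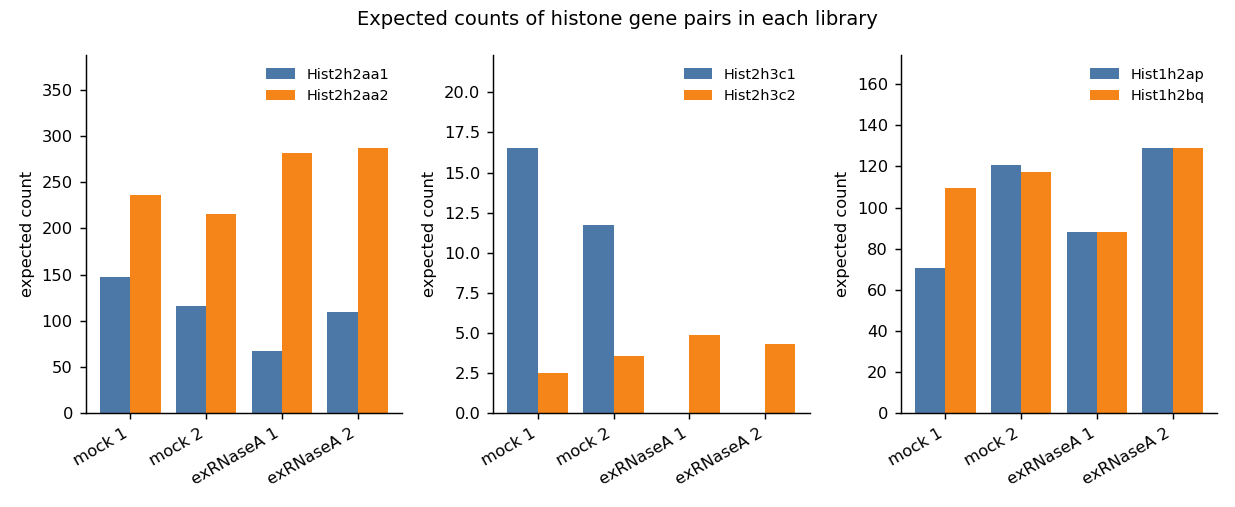
Expected counts per library (mock and exRNaseA, replicates 1 and 2) of 3 pairs of histone cluster genes that are copies by promoter sequence or whose counts coincide. Hist2h2aa1 and Hist2h2aa2 have opposite signs, Hist2h3c1 is at 0 in both exRNaseA libraries while Hist2h3c2 is not, and Hist1h2ap and Hist1h2bq have equal bars in both exRNaseA libraries.

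The other pairs of copies showed no call when summed. Hist1h2bq and Hist1h2br together had 465 and 419 counts in mock and 437 and 418 in exRNaseA libraries (log2 change -0.03, edgeR adjusted p = 0.973). Hist1h4m and Hist1h4n together had 21.59 and 12.26 against 30.27 and 14.64 counts, a log2 change of 0.43 (edgeR adjusted p = 0.919) with overlapping groups.

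Genes that act on histones or their messages, histone variant genes, and genes of DNA replication and of chromatin decondensation were read from the same fit. None was called by edgeR in any of the 6 lists below. Of 20 genes of histone message transcription and 3′ end processing 11 had a negative and 9 a positive log2 change, with a median of -0.01 and 2 at an unadjusted p under 0.05. Slbp, whose product binds the stem-loop, had 151 and 154 CPM in the mock and 150.4 and 149 CPM in the exRNaseA libraries, a log2 change of -0.03 (SE 0.03). Sympk, a scaffold of the cleavage complex, had 57.5 and 55.4 against 60.8 and 62.9 CPM, a change of 0.13 (edgeR adjusted p = 0.628). Srrt, which links the cap-binding complex to processing, had a change of 0.05. Of 8 decay genes found by symbol, 2 changes were negative and 6 positive, with 0 at an unadjusted p under 0.05. Upf1, a helicase of message decay, had 0.09 (SE 0.05), Xrn1, the 5′ to 3′ exonuclease, -0.02, and Exosc10, of the exosome, 0.04.

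Of 21 chaperone and import genes, which carry histones to chromatin, 11 were negative and 10 positive, with a median of -0.01 and none at an unadjusted p under 0.05. Nap1l1 and Hjurp (the Cenpa chaperone) each had a log2 change of 0.01, and Asf1a 0.13 (SE 0.07, edgeR adjusted p = 0.795). Of the 10 tested variant genes 6 were negative and 4 positive, also with none at an unadjusted p under 0.05. H3f3a had 1083 and 1047 CPM in the mock and 1039 and 1038 CPM in the exRNaseA libraries, a change of -0.04 (SE 0.02), with no overlap. H3f3b had -0.02 (SE 0.02) and H2afv 0.15 (SE 0.08). In the 6 genes of neutrophil chromatin decondensation, Lmnb1 (lamin B1) had -0.02, Lbr (lamin B receptor) 0.00 and Mpo (myeloperoxidase) 0.04, and none had an unadjusted p under 0.05.

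S phase is the phase in which cluster histones are made. Of 29 tested genes of DNA replication and S phase, 22 (75.9%) had a positive log2 change, against 49.9% of all tested genes, with a median of 0.03. An unadjusted p under 0.05 was reached by 1 of them (Mki67), which is 3.45% against 6.35% of all tested genes. Their summed level was 1942 and 1910 TPM in the mock and 1986 and 2046 TPM in the exRNaseA libraries, without overlap. The TPM sums of 3 other lists also stood higher without overlap, at 1422 to 1423 against 1433 to 1465 TPM for chaperones, 134.3 to 134.6 against 135.1 to 142.0 TPM for decay and 1420.0 to 1447 against 1480.0 to 1493 TPM for chromatin decondensation. In summed CPM only the S phase list (4124 and 4092 against 4164 and 4223) and the decay list (383 and 385 against 389.5 and 393) of the 6 did so. Pcna, the sliding clamp of DNA polymerase, had 226 and 224 against 234 and 224 CPM, a change of 0.02 (SE 0.03). Mki67, a marker of cycling cells, had 1417 and 1407 against 1430 and 1493 CPM, a change of 0.05 (SE 0.02, edgeR adjusted p = 0.759). Erythroid markers (5160 to 5290 TPM in the mock, 5392 to 5411 in the exRNaseA libraries), dendritic markers (34.8 to 37.8 against 39.8 to 40.2 TPM) and stem and progenitor markers (377 to 388 against 396 to 415 TPM) were also higher without overlap in TPM, and in CPM the erythroid and the stem and progenitor sums were. B-lineage, T and NK, monocyte, eosinophil and megakaryocyte marker sums overlapped in TPM, but the B-lineage sum (2275 and 2278 against 2242 and 2234 CPM) and the eosinophil, basophil and mast sum (267 and 265 against 263 and 247 CPM) were lower in CPM. The part of these cells in the histone values was not tested.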

How the data were processed

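The authors deposited expected counts, which are estimated counts per gene. The submitters' processing notes name STAR 2.4.2a, RSEM 1.3.3 and mm10. TPM was deposited in the same tables, per the file headers. The annotation release and strand setting are not given in the sources used here. Symbols came with a table of gene IDs, and RefSeq (GRCm38.p6) gave coordinates and promoter sequences by symbol or synonym.

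Expected counts were rounded before testing. edgeR 4.0.16 (filterByExpr with a minimum count of 10, TMM factors of 0.993 to 1.01) fitted mock against exRNaseA by quasi-likelihood, with Benjamini-Hochberg adjustment at 0.05 over 14184 genes. CPM use the TMM library sizes. Standard errors and 95% intervals come from the same fit. Replicates differed beyond sampling noise (chi-square per degree of freedom 2.28 for the mock pair and 2.52 for the exRNaseA pair).

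The members and the gene lists were chosen with earlier results of these data known. The text names every called member, in each histone family the 3 tested members with the highest TPM and the one with the smallest p, and in each other list the 2 highest and the one with the smallest p. The copies of these genes, the head-to-head pairs, the genes without counts and other single members were named after their values were seen. The alternatives were DESeq2 1.42.0, other scalings, filters of none or 10 CPM, limma 3.58.1 on log2(TPM + 0.1) and log2(TPM + 1), a replicate block, each library left out, removal of 5 genes carrying rRNA sequence (Lars2, Gm26917, Gm42418, AY036118 and CT010467.1) and, added later, copies summed.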

Additional observations from a re-analysis of the deposited data

How the results depend on the processing

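The number of genes called, 13, was 8 in DESeq2, 149 with no filter, 7 with the stricter filter, 8 and 7 in limma on log2(TPM + 0.1) and log2(TPM + 1), 3 without the 5 genes carrying rRNA sequence, and 9 to 74 with each library left out. The number of histone members called, 1, was 0 in DESeq2 (3 at an unadjusted p under 0.05), with the stricter filter (2), in limma on either TPM scale (4 each), without the 5 rRNA-sequence genes (5) and with copies summed, chosen after seeing the data (3). Hist2h3c1 was not among the genes tested with the stricter filter or in limma. The number was also 0 without each library in turn (0 to 0, with 2 to 5 at an unadjusted p under 0.05), where Hist2h3c1 was not tested without mock replicate 1 and kept its direction in the other 3. The median log2 change of the members, -0.05, was -0.01 in limma on either scale and ranged from -0.15 to -0.03 with a library left out. The log2 ratio of the summed level, -0.03, was 0.04 on summed TPM, 0.08 over members with whole counts and -0.05 to -0.02 with a library left out. With the replicate number as a block, 55 genes and 1 member were called, Hist2h3c1 with an edgeR adjusted p of 0.000562. For samples of equal number, the deviations from the group means correlated at 0.0104 over genes. That value cannot show whether such samples shared an animal or a batch, and the sources used here do not say. Of 412 values of 31 named genes 388 kept direction and call, 5 lost the call, 1 gained it (Mki67, 0.08 without exRNaseA replicate 1, edgeR adjusted p = 0.05) and 18 changed sign. In limma these were Hist1h2br (0.01 at TPM + 1), H3f3b (0.01 on both scales) and Lmnb1 (0.01 on both). With libraries left out the log2 change ranged from -0.24 to 0.71 for Hist1h2ap, -0.24 to 0.18 for Hist1h2br, -0.95 to 0.22 for Hist1h3d, -0.15 to 0.06 for Hist1h4i, -0.55 to 0.20 for Hist2h4, -0.06 to 0.02 for H3f3b, -0.02 to 0.08 for Exosc10, -0.01 to 0.04 for Nap1l1, -0.01 to 0.03 for Hjurp and -0.01 to 0.06 for Pcna. The cause of these shifts was not tested. With 2 libraries a group and few counts for many members, depth limits what could be detected among the H3 genes and the 47 untested members.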
